A study of Homo sapiens with 12 samples.

Results

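The collagen chain genes were taken as the protein-coding human genes whose symbol reads COL, a number, A and a number, which gave 44 genes out of 19657 protein-coding genes and 64252 gene IDs in the count files. Their messenger RNA was measured in MDA-MB-231 cells, an established human breast cancer line that lacks the oestrogen and progesterone receptors and that the labels describe as epithelial adenocarcinoma. All cells were grown in DMEM with fetal bovine serum and transfected with Dicer DNA by lipofectamine, and the 4 groups differed in the Dicer the DNA encoded. The wild-type group received wild-type Dicer, and the mutation 1, mutation 2 and mutation 3 groups each received a mutant Dicer whose mutation the labels number but do not name. Each group had 3 libraries of poly(A) RNA, and cells without plasmid or with empty plasmid were not analysed here, so each value against wild type compares a mutant plasmid with the wild-type plasmid. The labels do not say whether the libraries of a group came from separate cultures, so the p-values measure the spread between these libraries, which may be technical.

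Collagen chains wind around one another into triple helices, and the kind of helix decides where the protein sits. Fibrillar collagens form the tensile fibrils of connective tissue, type IV chains build the sheet of the basement membrane, type VI chains form beaded filaments at the cell surface, type VII forms anchoring fibrils, and the fibril-associated (FACIT), transmembrane and multiplexin collagens decorate fibrils, span the plasma membrane or sit in basement membranes. In breast tumours fibroblasts are the main source of fibrillar collagen, and carcinoma cells add chains of their own. Dicer is the ribonuclease that cuts precursor hairpins into mature microRNAs.

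The microRNA family best known for pairing with collagen messages is miR-29, and its mature sequences (RefSeq) are shown because so many of these chains carry its seed match. Capitals mark the seed, bases 2 to 8.
hsa-miR-29a-3p: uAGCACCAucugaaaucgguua
hsa-miR-29b-3p: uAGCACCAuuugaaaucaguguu
hsa-miR-29c-3p: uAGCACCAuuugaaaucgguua
All 3 share the seed AGCACCA, and the matching site in a transcript reads TGGTGCT, searched on the transcript strand only. In the 3′ untranslated regions of GENCODE v29 transcripts (GRCh38), 28 of the 44 chain genes (63.64%) held at least 1 such site, against 1754 of 12505 tested protein-coding genes (14.03%). The 44 include chains with too few counts to be tested. Of the 20 chains called detected below, 14 (70.0%) held a site. The median length of the 3′ untranslated regions was 1115 bases for the 44 chains and 1005 bases for the tested genes. The chains held 41 sites in all, 22 of them followed by an A, and 9 chains held 2 or more. Windows of 30 bases around 1 site per chain are shown for 8 chains on which the results below turn, with the site in capitals.
COL1A1 (chr17:50184568-50184597, minus strand): gggtggggagggaatcacTGGTGCTataga
COL4A1 (chr13:110150322-110150351, minus strand): tcagctaatgtcacaacaTGGTGCTacttc
COL4A2 (chr13:110512201-110512230, plus strand): tgccaggaagggccatttTGGTGCTtattc
COL4A5 (chrX:108696466-108696495, plus strand): tactactgctgccgtcaaTGGTGCTactat
COL5A1 (chr9:134843364-134843393, plus strand): tctcttgtggctctcttgTGGTGCTatcta
COL6A2 (chr21:46132584-46132613, plus strand): gtgagcccaccccgtccaTGGTGCTaagcg
COL7A1 (chr3:48564318-48564347, minus strand): ccccactgtccctcccctTGGTGCTagagg
COL8A1 (chr3:99798742-99798771, plus strand): atactgtgcattctacaaTGGTGCTaatct
COL5A1 held 4 sites, the most of any chain, and COL7A1 held 2. Of the 8 sites shown, all but that of COL4A2 were followed by an A. COL6A1, COL9A2, COL12A1, COL13A1, COL17A1 and COL18A1 held none among the detected chains. No microRNA was measured here, and a match of letters is a description of the reference transcript.

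Type IV chain genes lie in pairs that start head to head, and the windows from 250 bases before to 50 bases after the RefSeq start (GRCh38.p14) are shown for the pairs whose levels are compared further on. Capitals mark GC boxes (GGGCGG) and CCAAT boxes (CCAAT) on either strand.
COL4A1 (chr13:110307108-110307407, minus strand): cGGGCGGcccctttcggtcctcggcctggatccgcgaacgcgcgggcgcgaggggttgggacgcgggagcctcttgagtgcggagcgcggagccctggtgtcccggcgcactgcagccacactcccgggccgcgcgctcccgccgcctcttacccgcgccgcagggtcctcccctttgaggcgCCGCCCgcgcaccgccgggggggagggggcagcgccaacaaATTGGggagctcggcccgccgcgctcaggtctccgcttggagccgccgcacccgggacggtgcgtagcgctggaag
COL4A2 (chr13:110307034-110307333, plus strand): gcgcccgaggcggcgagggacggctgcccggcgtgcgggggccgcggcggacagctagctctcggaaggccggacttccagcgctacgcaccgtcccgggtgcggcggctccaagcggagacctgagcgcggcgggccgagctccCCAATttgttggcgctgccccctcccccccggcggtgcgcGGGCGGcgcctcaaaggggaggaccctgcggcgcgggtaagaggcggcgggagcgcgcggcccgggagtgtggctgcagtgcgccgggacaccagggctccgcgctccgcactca
COL4A5 (chrX:108439588-108439887, plus strand): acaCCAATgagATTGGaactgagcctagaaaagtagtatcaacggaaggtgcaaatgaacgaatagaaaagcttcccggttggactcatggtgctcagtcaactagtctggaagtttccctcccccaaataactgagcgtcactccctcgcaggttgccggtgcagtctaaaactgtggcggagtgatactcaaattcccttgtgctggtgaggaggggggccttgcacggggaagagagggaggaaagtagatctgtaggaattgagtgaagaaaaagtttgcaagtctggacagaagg
COL4A6 (chrX:108439409-108439708, minus strand): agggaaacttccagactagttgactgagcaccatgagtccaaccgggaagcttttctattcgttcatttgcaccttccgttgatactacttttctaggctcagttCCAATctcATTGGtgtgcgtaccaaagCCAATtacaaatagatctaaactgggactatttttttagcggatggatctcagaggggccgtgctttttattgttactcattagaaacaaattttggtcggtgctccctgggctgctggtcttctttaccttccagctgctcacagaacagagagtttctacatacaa
The starts of COL4A1 and COL4A2 were 127 bases apart and their windows overlapped by 226 bases. The COL4A1 window held 2 GC boxes and 1 CCAAT box, and the COL4A2 window held 1 of each. The starts of COL4A5 and COL4A6 were 380 bases apart, and those of COL4A3 and COL4A4 were 419 bases apart. The windows of COL4A5 and COL4A6 held no GC box and 2 and 3 CCAAT boxes. Of all 35116 RefSeq windows, 44.95% held a GC box and 34.61% a CCAAT box. A second RefSeq start of COL4A6 is not shown.

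Library totals ran from 13507341 to 17078273 assigned read pairs. Levels are CPM, which are counts scaled to the library's total after a trimmed mean of M values (TMM) correction, and levels of different genes are compared only per kilobase of exon (RPKM). Wild-type replicate 1 stood apart from the other two wild-type libraries, so values with it left out stand beside the called results against wild type and beside those whose call or direction it changed. Of the 20 detected chains, 10 were over 1.5-fold higher and 6 over 1.5-fold lower in that library than in the mean of wild-type replicates 2 and 3, while the largest difference between replicates 2 and 3 was 1.85-fold, for COL4A5. DICER1 read 27.4, 45.2 and 47.4 CPM in wild type and 38.8 to 45.7 CPM in the 9 mutant libraries, and the counts do not separate plasmid from genomic transcripts. The markers of the line were present, all 7 at 1 CPM or more in every group, and of the receptors ESR1, PGR and ERBB2 only ERBB2 reached 1 CPM. Of 7 fibroblast markers DCN had 0 counts in every library, and 2 reached 1 CPM: ACTA2, and PDGFRB, which was at 17.0, 5.25 and 5.05 CPM in wild type, 76.8, 76.5 and 84.8 CPM with mutation 1, 8.73, 7.78 and 9.03 CPM with mutation 2 and 23.9, 21.9 and 22.2 CPM with mutation 3. The summed fibroblast markers ran from 6.66 to 19.1 CPM in wild type, 78.7 to 86.6 with mutation 1, 9.34 to 11.5 with mutation 2 and 27.3 to 28.0 with mutation 3, and their part in the collagen values was not tested. The endothelial marker PECAM1 read 2.76, 17.1 and 15.3 CPM in wild type and at most 0.915 CPM in the mutant libraries.

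A chain was called detected where its mean reached 1 CPM in at least 1 group. By that rule 20 of the 44 chains were detected. Another 21 had only a trace, 1 to 130 counts over all 12 libraries with no library above 1.18 CPM, and COL6A5, COL9A1 and COL11A2 had 0 counts in all 12, which allows up to 0.0165 CPM by counting error. Detected fibrillar chains were 5 of 11: COL1A1, COL3A1, COL5A1, COL5A2 and COL27A1. COL3A1 met the rule only with mutation 2, whose mean of 2.52 CPM rested on replicate 3 at 7.11 CPM. Its wild-type mean was 0.9935 CPM. The basement membrane network had 4 of 6 (COL4A1, COL4A2, COL4A4 and COL4A5), the beaded filament 3 of 5 (COL6A1, COL6A2 and COL6A3), the anchoring fibril its single chain COL7A1, and the short-chain network 1 of 3 (COL8A1). The FACIT class had 3 of 10 (COL9A2, COL12A1 and COL16A1), the transmembrane class 2 of 4 (COL13A1 and COL17A1) and the multiplexins 1 of 2 (COL18A1). COL1A2, which joins COL1A1 in the heterotrimer of type I collagen, was a trace chain with 64 counts in all.

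Per kilobase, the order of the chains depended on the group. In wild type COL13A1 had the highest mean, 77.7 ± 46.2 RPKM (mean ± SD, n = 3), followed by COL6A1 at 62.3 ± 16.9 RPKM. The wild-type libraries did not share that order. In wild-type replicate 1 COL5A1 led at 55.6 RPKM, with COL6A1 at 42.8 and COL13A1 at 24.3. In wild-type replicates 2 and 3 COL13A1 read 105 and 104 RPKM and COL6A1 71.9 and 72.2. With mutation 1, COL18A1 led at 82.9 ± 1.98 RPKM, then COL6A2 at 77.1 ± 1.34, COL6A1 at 70.9 ± 3.06 and COL5A1 at 70.2 ± 2.24 RPKM. The last 2 of these lay within 1 SD of each other. With mutation 2 the top 3 were COL18A1 at 42.7 ± 2.86, COL6A1 at 40.4 ± 1.82 and COL13A1 at 36.6 ± 0.715 RPKM. With mutation 3 the top 2 were COL13A1 at 57.8 ± 1.60 and COL6A2 at 56.1 ± 1.34 RPKM, and COL13A1 was the higher in every mutation 3 library. At the low end COL3A1, COL4A4 and COL5A2 stayed under 1 RPKM in every group mean. COL1A1, the chain most used as a sign of fibril production, had group means from 1.30 to 3.50 RPKM. In the plot of levels per kilobase, wild-type points are spread over most of a decade for COL12A1 and over more than that for COL4A5.

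**Figure D1:**
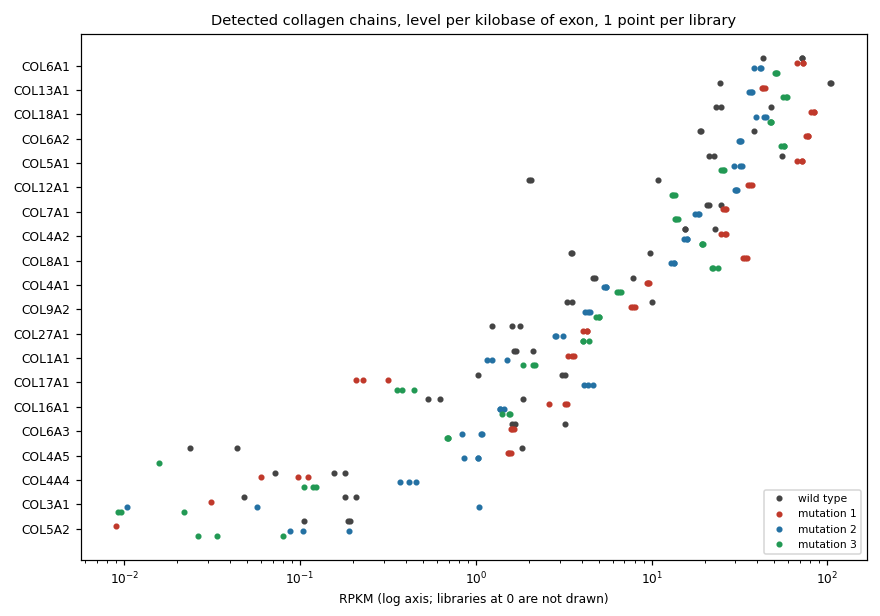
RPKM of the 20 detected collagen chains on a log axis, 1 point per library, coloured by group (wild type and mutations 1 to 3). COL6A1, COL13A1 and COL18A1 have the highest means over all libraries, and COL3A1 and COL5A2 the lowest.

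Summed over all 44 chains, the wild-type libraries held 2863.0, 2352.9 and 2315.2 CPM, the first being replicate 1. Mutation 1 libraries held 4490.8, 4349.4 and 4516.8 CPM, and all 3 lay above the 9 other libraries. Mutation 2 libraries held 2476.4, 2615.2 and 2591.7 CPM and mutation 3 libraries 2759.0, 2743.1 and 2728.1 CPM. The group means were 2510.4 ± 306.0 CPM for wild type, 4452.3 ± 90.1 for mutation 1, 2561.1 ± 74.3 for mutation 2 and 2743.4 ± 15.5 for mutation 3 (SD, n = 3). A sum over CPM weights long messages more than short ones and is given as a description.

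Of the 44 chains, 24 passed the filter on low counts and were tested: the 20 detected ones and COL4A3, COL4A6, COL9A3 and COL15A1. In edgeR's quasi-likelihood test with p-values adjusted by Benjamini-Hochberg over all 15094 genes, 20 of the 24 differed among the 4 groups (83.0% of all genes did). Mutation 1 against wild type called 11 chains higher and 2 lower, where 32.5% of all genes were called higher and 36.5% lower. The median log2 fold change of the 24 chains was 0.35, against -0.04 for all genes. With wild-type replicate 1 left out, the same comparison called 14 higher and 4 lower, with 40.2% and 42.5% of all genes, and the median of the chains was 0.88. Mutation 2 against wild type called 4 higher and 5 lower (16.9% and 20.1% of all genes), with a median of 0.13 against -0.01 for all genes. When it was left out, this became 14 higher and 6 lower (33.0% and 34.9% of all genes), median 0.49. Mutation 3 against wild type called 6 higher and 6 lower (28.1% and 31.2% of all genes), with a median of -0.26 against -0.01. Without it the call was 12 higher and 8 lower (38.2% and 38.8% of all genes), median 0.11. Other libraries mattered less: mutation 2 called 3 lower without mutation 2 replicate 1, and mutation 3 called 3 higher without mutation 3 replicate 1, mutation 3 replicate 3 or wild-type replicate 3. The 3 comparisons share their wild-type libraries. Fitted with only the 6 libraries of the 2 groups, mutation 1 called 8 higher and 2 lower of 21 chains tested (26.4% and 32.0% of all genes in that fit), mutation 2 called 2 chains, both higher, of 23 (8.73% called higher and 9.76% lower), and mutation 3 called 3 higher and 5 lower of 20 (20.2% and 26.4%). In those fits the calls of COL4A2, COL5A1 and COL7A1 for mutation 1, of COL1A1, COL6A1, COL6A3, COL7A1, COL8A1, COL9A3 and COL12A1 for mutation 2, and of COL12A1 and COL18A1 for mutation 3 were lost. Scaled by library totals alone, which puts the median of all genes as low as -0.25, the split was 9 higher and 5 lower for mutation 1 and 4 higher and 7 lower for mutation 3. Fold changes below are log2 values from the same fit over all 12 libraries, and the standard errors were derived from the fold change and its F statistic.

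**Figure D2:**
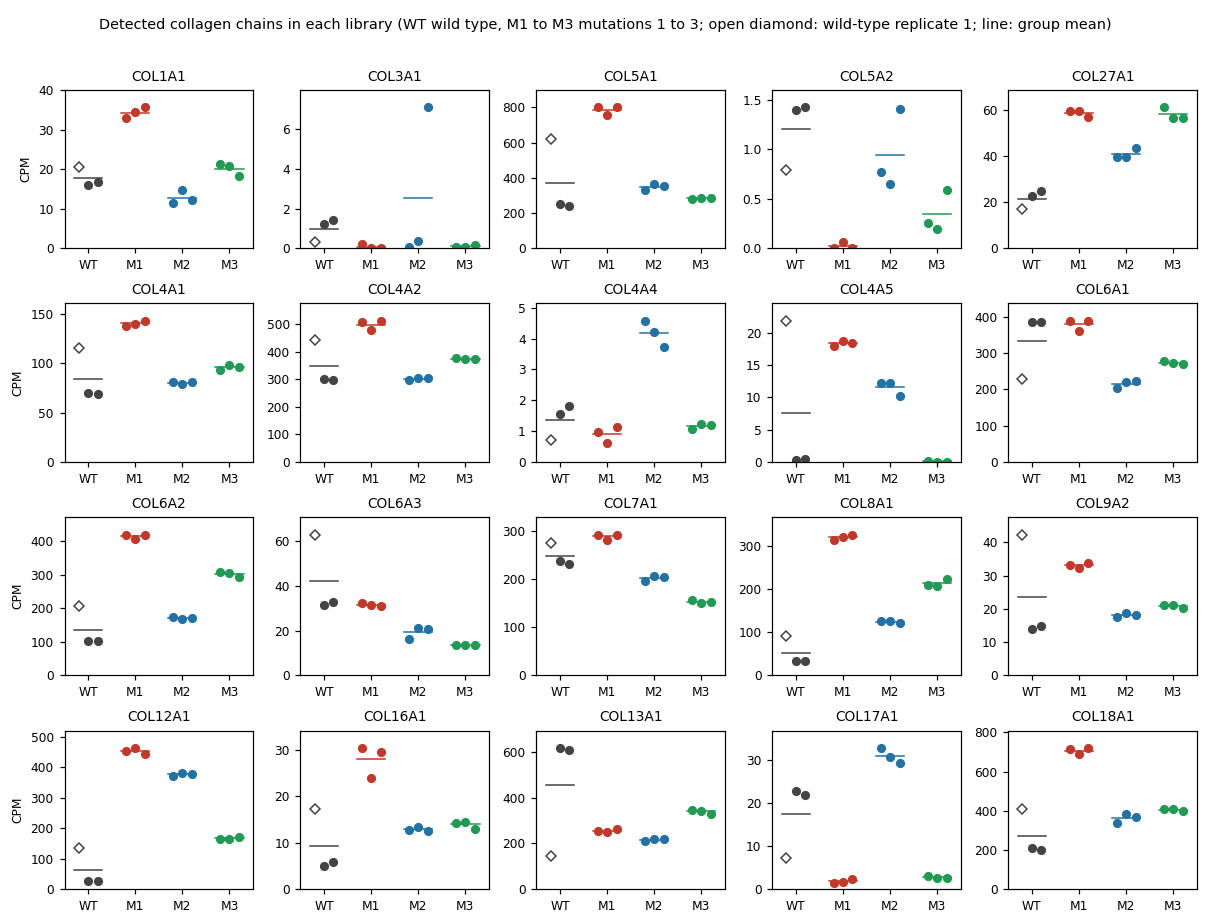
CPM of the 20 detected collagen chains in each library, 1 panel per chain with its own axis from 0, with wild-type replicate 1 as an open diamond and lines at the group means. In COL12A1 and COL8A1 every mutant library lies above every wild-type library, and in COL4A5 the open diamond lies above the mutation 1 points.

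**Figure D3:**
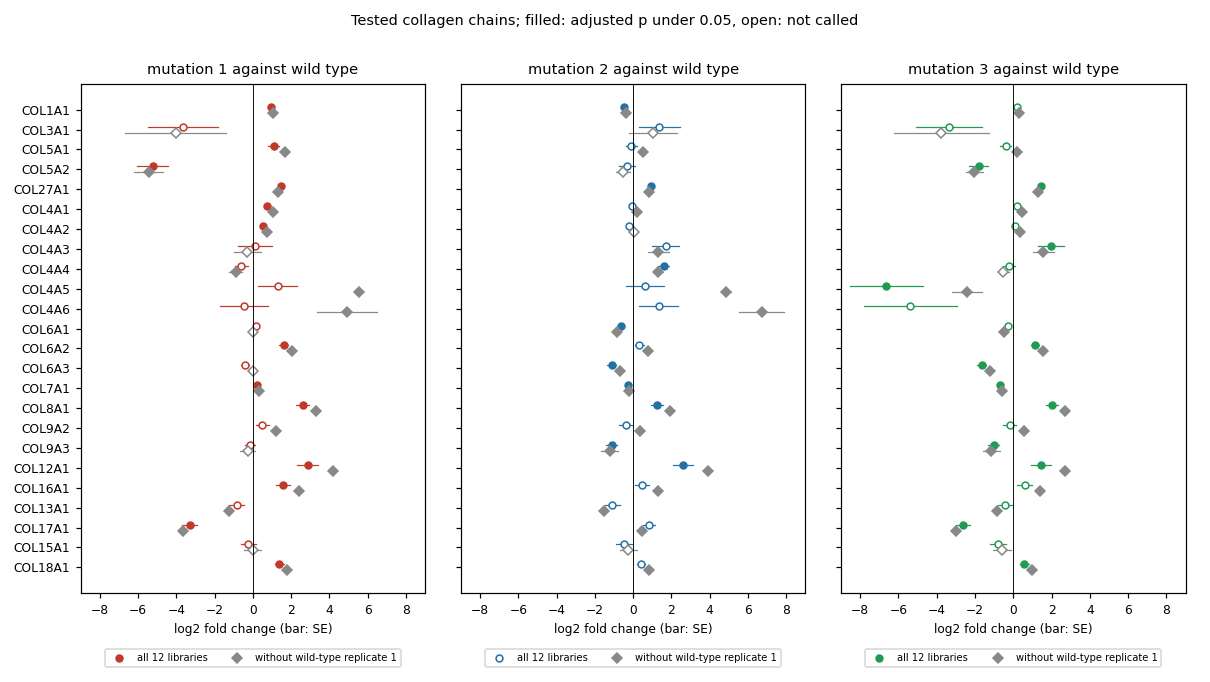
Log2 fold change against wild type of the 24 tested chains for each mutation, with SE bars, over all 12 libraries (coloured circles) and without wild-type replicate 1 (grey diamonds); filled symbols have an adjusted p under 0.05. COL12A1, COL8A1 and COL27A1 lie right of 0 in all 3 panels; points beside a group with 3 or fewer counts are fitted values that depend on the prior count, and none is drawn where both groups have 3 or fewer.

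Among the fibrillar chains, COL5A1, the chain of type V collagen that sets fibril diameter (gene at chr9:134641774-134844843, plus strand), rose with mutation 1. It read 622, 253 and 238 CPM in wild type, 799.6, 757 and 800.4 with mutation 1, 328, 363 and 355 with mutation 2 and 278, 284 and 287 with mutation 3. All mutation 1 libraries lay above all others, and wild-type replicate 1 came closest to them. The log2 fold change of mutation 1 against wild type was 1.08 (SE 0.29, adjusted p = 0.00675), and 1.68 without wild-type replicate 1. Against mutation 2 the difference was 1.17 (SE 0.29, adjusted p = 0.00467), and against mutation 3 it was 1.47 (SE 0.30, adjusted p = 0.00232). Mutation 2 against wild type turned from -0.09, not called, to 0.51 (SE 0.03, adjusted p = 1.57e-27) without wild-type replicate 1, and mutation 3 likewise from -0.39 to 0.21 (adjusted p = 3.33e-08).

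COL5A2, which pairs with COL5A1 in type V collagen, moved the other way. It read 0.788, 1.40 and 1.42 CPM in wild type and 0.774, 0.649 and 1.41 with mutation 2, but 0, 0.0671 and 0 with mutation 1 and 0.250, 0.196 and 0.593 with mutation 3. The mutation 1 libraries held 1 COL5A2 count against 59 in wild type, a ratio of wild type to mutation 1 of 50.55 (95% Clopper-Pearson interval 8.73 to 2030, counting error only), adjusted p = 1.62e-04. With wild-type replicate 1 left out that ratio was 58.7 (10.03 to 2366), from 47 counts. Mutation 3 against wild type was -1.81 (SE 0.50, adjusted p = 0.0097), and -2.04 with that library left out. Per kilobase COL5A2 never exceeded 0.00899 of COL5A1 in any library.

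COL27A1, a fibrillar chain known from cartilage, rose with all 3 mutations. It read 17.3, 22.6 and 24.8 CPM in wild type, 59.7, 59.7 and 57.1 with mutation 1, 39.8, 39.7 and 43.7 with mutation 2 and 61.2, 56.7 and 56.7 with mutation 3. Every mutant library lay above every wild-type library. The log2 fold changes were 1.45 (SE 0.11, adjusted p = 9.08e-07) for mutation 1, 0.93 (SE 0.11, adjusted p = 1.48e-04) for mutation 2 and 1.43 (SE 0.11, adjusted p = 1.92e-06) for mutation 3. Leaving out wild-type replicate 1 gave 1.32, 0.81 and 1.31. Mutation 2 lay under the other two mutations, by -0.50 against mutation 3 (adjusted p = 0.00271).

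COL1A1, the main chain of type I collagen (chr17:50183289-50201632, minus strand), was at 20.7, 16.1 and 16.7 CPM in wild type and 32.9, 34.4 and 35.7 with mutation 1. Mutation 2 libraries read 11.4, 14.9 and 12.2 and mutation 3 libraries 21.3, 20.8 and 18.3. The mutation 1 libraries were the highest and the mutation 2 libraries the lowest, with no overlap. The change was 0.95 (SE 0.12, adjusted p = 4.57e-05) for mutation 1 and -0.47 (SE 0.12, adjusted p = 0.0126) for mutation 2, and without wild-type replicate 1 it was 1.07 and -0.35. Mutation 3 was not called (0.18, adjusted p = 0.235), but was at 0.31 (adjusted p = 0.00118) when that library was dropped. The mutation 2 call was lost when mutation 2 replicate 1 or replicate 3 was left out, with adjusted p up to 0.0578. Mutation 1 against mutation 2 differed by 1.42 (SE 0.12, adjusted p = 2.26e-06). COL1A2 lay at most at 0.0435 of COL1A1 per kilobase in any library, and in the mutation 1 libraries at 0.00197 to 0.00565.

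COL3A1, the type III chain of skin and vessel walls, had its highest level in 1 mutation 2 library. It read 0.328, 1.23 and 1.42 CPM in wild type, 0.211, 0 and 0 with mutation 1, 0.0704, 0.389 and 7.11 with mutation 2 and 0.0626, 0.0653 and 0.148 with mutation 3. Its call in mutation 1 against mutation 2 (adjusted p = 0.0202) had an adjusted p of 0.315 without mutation 2 replicate 3, and that in mutation 2 against mutation 3 (adjusted p = 0.0262) one of 0.421. Both were also lost without wild-type replicate 1 (adjusted p = 0.0559 and 0.0595), the first without mutation 1 replicate 2 or 3 and the second without any 1 mutation 3 library. The other fibrillar chains COL2A1, COL5A3, COL11A1 and COL24A1 were trace chains and COL11A2 had no count.

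In the basement membrane network, COL4A1 and COL4A2, which wind together into the ubiquitous type IV helix, rose together with mutation 1. COL4A1 read 116, 70.1 and 68.5 CPM in wild type, 139, 140.1 and 143 with mutation 1, 81.6, 79.1 and 81.1 with mutation 2 and 93.1, 98.5 and 96.1 with mutation 3. COL4A2 read 441, 299.9 and 298 CPM in wild type, 507, 478 and 512 with mutation 1, 296, 306 and 306 with mutation 2 and 379, 373 and 373 with mutation 3. For both, mutation 1 libraries were the highest, wild-type replicate 1 came next, and wild-type replicates 2 and 3 were among the lowest. The change with mutation 1 was 0.73 (SE 0.16, adjusted p = 0.002) for COL4A1 and 0.53 (SE 0.13, adjusted p = 0.00335) for COL4A2, and without wild-type replicate 1 it was 1.02 and 0.74. The COL4A2 call was lost when scaled by library totals alone (adjusted p = 0.0595). Over all libraries neither chain was called for mutation 2 (-0.07 and -0.19) or mutation 3 (0.18 and 0.11). With wild-type replicate 1 left out, COL4A1 was called higher for both, at 0.22 (adjusted p = 1.05e-05) and 0.47 (adjusted p = 3.38e-18), and COL4A2 for mutation 3, at 0.33 (adjusted p = 2.29e-18), but not for mutation 2, at 0.02 (adjusted p = 0.527). Per kilobase, the ratio of COL4A2 to COL4A1 kept a narrow range, 3.17 ± 0.22 in wild type, 2.71 ± 0.10 with mutation 1, 2.87 ± 0.09 with mutation 2 and 2.99 ± 0.11 with mutation 3 (SD, n = 3). Their promoter windows share 226 bases, those of COL4A5 and COL4A6 121 and those of COL4A3 and COL4A4 82. Any bearing of this on the levels was not tested.

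COL4A5 (chrX:108439844-108697545, plus strand), a chain of the type IV helix of kidney and skin basement membranes, was split between libraries. It read 21.9, 0.279 and 0.518 CPM in wild type, 18.0, 18.7 and 18.4 with mutation 1, 12.2, 12.3 and 10.2 with mutation 2 and 0.188, 0 and 0 with mutation 3. Wild-type replicate 1 lay above every other library, whereas wild-type replicates 2 and 3 lay near the mutation 3 libraries. The mutation 3 libraries held 3 counts against 765 in the mutation 1 libraries, a ratio of mutation 1 to mutation 3 of 274 (95% interval 93.5 to 1333, adjusted p = 0.00497), and against 543 in the mutation 2 libraries, a ratio of 171 (58.3 to 832.5, adjusted p = 0.00697). Against wild type the ratio was 106 (36.1 to 518, adjusted p = 0.0116), with 333 of the 346 wild-type counts in replicate 1. From the 13 counts of the other two wild-type libraries it was 5.82 (1.60 to 31.8, adjusted p = 0.00415). Mutations 1 and 2 against wild type were not called over all libraries (adjusted p = 0.27 and 0.66). Both were called once wild-type replicate 1 was left out, at 5.53 (SE 0.22, adjusted p = 7.31e-52) and 4.86 (SE 0.24, adjusted p = 4.56e-41).

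COL4A6, the head-to-head partner of COL4A5, was a trace chain with 67 counts. It read 1.05, 0 and 0 CPM in wild type, 0.281, 0.201 and 0.239 with mutation 1, 0.845, 0.519 and 1.18 with mutation 2 and 0, 0 and 0 with mutation 3. It had no count in the 5 libraries where COL4A5 was lowest. Elsewhere the order differed, since COL4A5 was higher in the mutation 1 libraries and COL4A6 in the mutation 2 libraries, and the ratio of COL4A6 to COL4A5 per kilobase was 0.0168 and 0.0970 (group means). Mutation 2 libraries were at least 4.31-fold higher than mutation 3 libraries, with the floor of 3 counts per library in mutation 3, and the adjusted p was 0.0221, a call lost without any 1 of 4 libraries (mutation 2 replicate 3 or any mutation 3 library, adjusted p up to 0.0608). With no count left in wild type once its replicate 1 was dropped, mutation 2 was at least 4.81-fold higher (adjusted p = 1.56e-07) and mutation 1 at least 1.34-fold (adjusted p = 0.00325). Over all libraries neither was called (adjusted p = 0.333 and 0.753).

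COL4A4 and COL4A3 form the third pair. COL4A4 read 0.722, 1.56 and 1.81 CPM in wild type, 0.985, 0.604 and 1.12 with mutation 1, 4.58, 4.22 and 3.72 with mutation 2 and 1.06, 1.24 and 1.19 with mutation 3. The mutation 2 libraries lay above all the others. The differences were 1.60 (SE 0.29, adjusted p = 0.00186) against wild type (1.31 without wild-type replicate 1), -2.21 (SE 0.32, adjusted p = 1.01e-04) for mutation 1 against mutation 2, and 1.83 (SE 0.30, adjusted p = 4.45e-04) for mutation 2 against mutation 3. Mutation 1 against wild type was -0.61, not called, and -0.91 (SE 0.32, adjusted p = 0.00736) with wild-type replicate 1 left out. COL4A3, a trace chain with 97 counts, was called higher with mutation 3 than with wild type at 1.96 (SE 0.69, adjusted p = 0.0304), and at 1.56 with that library left out, when mutation 2 was called too at 1.32 (adjusted p = 0.0285, from 0.0793 over all libraries). The mutation 3 call was lost without mutation 3 replicate 1 or 3 or wild-type replicate 3 (adjusted p up to 0.0958), and 120 of its exon bases overlap an antisense gene that the unstranded counts cannot separate.

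**Figure D4:**
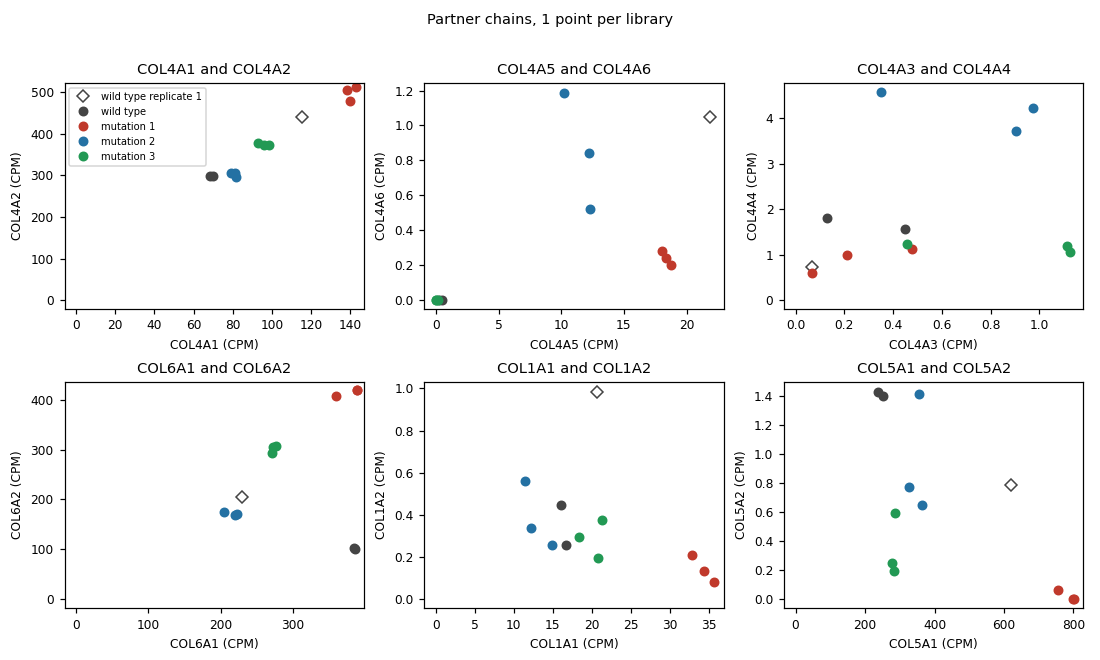
CPM of 6 pairs of partner chains plotted against each other, 1 point per library, coloured by group with wild-type replicate 1 as an open diamond. COL4A1 and COL4A2 lie along a line, COL4A5 and COL4A6 are both near 0 in mutation 3 and in wild-type replicates 2 and 3, and COL6A1 is high with a low COL6A2 in those same wild-type replicates.

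Among the beaded filament chains of type VI collagen, which carry COL6A1, COL6A2 and COL6A3 in one molecule, the 3 chains moved differently. COL6A2 (chr21:46098097-46132849, plus strand) read 206, 103 and 101 CPM in wild type, 419, 407 and 419 with mutation 1, 174, 169 and 171 with mutation 2 and 307, 306 and 294 with mutation 3. COL6A1 read 229, 384 and 386 CPM in wild type, 388, 360.0 and 389 with mutation 1, 205, 220.3 and 223 with mutation 2 and 277, 272 and 271 with mutation 3. COL6A3, the largest of the 3, read 62.9, 31.4 and 32.6 CPM in wild type, 32.2, 31.6 and 31.0 with mutation 1, 16.5, 21.1 and 20.9 with mutation 2 and 13.7, 13.5 and 13.6 with mutation 3. So the mutation 1 libraries were highest for COL6A2, shared the top of COL6A1 with wild-type replicates 2 and 3, and were level with those replicates for COL6A3.

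COL6A2 rose with mutation 1 (1.60, SE 0.22, adjusted p = 7.95e-05) and mutation 3 (1.15, SE 0.22, adjusted p = 0.00107), and by 2.03 and 1.57 without wild-type replicate 1, when mutation 2 was called as well (0.33, then 0.75). COL6A1 was called lower with mutation 2 (-0.62, SE 0.16, adjusted p = 0.0104, and -0.83 without wild-type replicate 1). With that library left out mutation 3 was also called lower (-0.29, then -0.49). Mutation 1 lay above mutation 2 by 0.81 (SE 0.16, adjusted p = 9.59e-04). COL6A3 fell with mutation 2 (-1.11, SE 0.23, adjusted p = 0.00347) and mutation 3 (-1.64, SE 0.23, adjusted p = 1.47e-04), and without wild-type replicate 1 the values were -0.70 and -1.23. Per kilobase the ratio of COL6A2 to COL6A1 was 0.891 in wild-type replicate 1 but 0.265 and 0.260 in replicates 2 and 3. It was 1.09 ± 0.03 with mutation 1, 0.789 ± 0.047 with mutation 2 and 1.10 ± 0.02 with mutation 3 (SD, n = 3). COL6A3 stayed between 0.0135 and 0.0749 of COL6A1 per kilobase. Of the other chains of this class, COL6A6 had 1 count and COL6A5 none.

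COL7A1, the single chain of the anchoring fibrils that fasten epithelium to the dermis, differed between the groups by small steps. It read 274, 236 and 229.9 CPM in wild type, 292, 281 and 290.4 with mutation 1, 195, 206 and 204 with mutation 2 and 156, 149.5 and 152 with mutation 3. The 4 groups did not overlap, in the order mutation 1, wild type, mutation 2 and mutation 3. Against wild type it was -0.69 (SE 0.07, adjusted p = 9.51e-06) for mutation 3, -0.29 (SE 0.07, adjusted p = 0.00682) for mutation 2 and 0.22 (SE 0.07, adjusted p = 0.0128) for mutation 1. Without wild-type replicate 1 the 3 values were -0.61, -0.20 and 0.31. The mutation 1 call was lost without mutation 1 replicate 1 or 3 or wild-type replicate 2 or 3 (adjusted p up to 0.0675), and scaled by library totals alone its log2 fold change was 0.01. Mutation 1 against mutation 3 was 0.92 (SE 0.07, adjusted p = 3.20e-06).

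COL8A1, a short-chain network collagen of vessel walls and the cornea (chr3:99638475-99799226, plus strand), rose with all 3 mutations. It read 91.9, 33.0 and 32.9 CPM in wild type, 313, 320.0 and 326 with mutation 1, 126, 126 and 121 with mutation 2 and 209.8, 208 and 224 with mutation 3. No mutant library overlapped wild type. The changes were 2.61 (SE 0.33, adjusted p = 4.30e-05) for mutation 1, 1.25 (SE 0.32, adjusted p = 0.0113) for mutation 2 and 2.03 (SE 0.33, adjusted p = 3.35e-04) for mutation 3. The values with replicate 1 of wild type left out were 3.28, 1.93 and 2.71. Mutation 1 lay above mutation 2 by 1.36 (SE 0.32, adjusted p = 0.00309). Its partner COL8A2 was a trace chain with 80 counts and COL10A1 had 8.

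Of the FACIT chains, COL12A1, which coats type I fibrils (chr6:75084326-75206051, minus strand), had the largest rise with mutation 1 of the 24 tested chains over all libraries. It read 135, 25.2 and 25.6 CPM in wild type, 454, 463 and 442 with mutation 1, 371, 381 and 378 with mutation 2 and 164, 165 and 171 with mutation 3. Every mutant library lay above every wild-type library, and wild-type replicate 1 lay 5.32-fold above the mean of the other 2. The changes were 2.87 (SE 0.54, adjusted p = 7.29e-04) for mutation 1, 2.60 (SE 0.54, adjusted p = 0.00356) for mutation 2 and 1.43 (SE 0.52, adjusted p = 0.0343) for mutation 3. Dropping that replicate moved them to 4.16, 3.90 and 2.72. The mutation 3 call was lost without any 1 of 8 libraries, among them every mutation 1 and mutation 3 library and wild-type replicates 2 and 3, with adjusted p up to 0.0938.

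COL16A1, a FACIT of skin and cartilage, read 17.3, 4.97 and 5.76 CPM in wild type, 30.4, 24.0 and 29.6 with mutation 1, 12.7, 13.4 and 12.6 with mutation 2 and 14.3, 14.5 and 13.0 with mutation 3. It rose with mutation 1 (1.59, SE 0.37, adjusted p = 0.00275, and 2.39 without wild-type replicate 1). It was not called for mutations 2 and 3 (adjusted p = 0.341 and 0.193), but was without wild-type replicate 1, at 1.28 and 1.39. COL9A2, a chain of the type IX collagen of cartilage, read 42.3, 13.9 and 14.9 CPM in wild type, 33.2, 32.4 and 33.8 with mutation 1, 17.6, 18.7 and 18.3 with mutation 2 and 21.2, 21.3 and 20.4 with mutation 3. Wild-type replicate 1 was its highest library and the other wild-type libraries its lowest. It was not called for mutation 1 (adjusted p = 0.217) and was without wild-type replicate 1, at 1.21. Mutations 2 and 3 turned from -0.38 and -0.18, not called, to 0.35 and 0.55 (adjusted p = 3.07e-04 and 1.04e-08) on leaving out that library. COL9A3, a trace chain with 125 counts, was called lower with mutation 2 and mutation 3 at -1.11 and -1.02 (adjusted p = 0.0114 and 0.0102), and at -1.22 and -1.14 without wild-type replicate 1. Either call was lost without wild-type replicate 2 (adjusted p = 0.0588 and 0.0536), the first also without mutation 2 replicate 1 or 2 and the second without mutation 3 replicate 1, and 45 of its exon bases overlap TCFL5 on the other strand, which had 10510 counts.

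The transmembrane collagens COL17A1 and COL13A1 were the 2 detected members that span the plasma membrane. COL17A1, the hemidesmosome collagen of basal epithelial cells (chr10:104031286-104085957, minus strand), read 7.28, 22.8 and 21.9 CPM in wild type, 1.48, 1.61 and 2.23 with mutation 1, 32.7, 30.7 and 29.3 with mutation 2 and 3.13, 2.68 and 2.52 with mutation 3. The mutation 1 and mutation 3 libraries all lay below wild type and the mutation 2 libraries all above it. It fell with mutation 1 by 3.30 (SE 0.39, adjusted p = 2.57e-05) and with mutation 3 by 2.64 (SE 0.37, adjusted p = 1.25e-04) on the log2 scale, and mutation 2 against wild type was not called (0.83, SE 0.32, adjusted p = 0.0651). Without wild-type replicate 1 the 3 values were -3.67, -3.00 and 0.47 (SE 0.08, adjusted p = 8.62e-08). Mutation 2 lay above mutation 3 by 3.47 (SE 0.37, adjusted p = 2.19e-05), and mutation 1 against mutation 2 was -4.13 (SE 0.40, adjusted p = 4.83e-06).

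COL13A1, a transmembrane collagen of cell adhesion sites, read 143, 618 and 612 CPM in wild type, 255, 249 and 262 with mutation 1, 211, 218 and 218 with mutation 2 and 348, 344 and 329.9 with mutation 3. Wild-type replicate 1 was below every mutant library and the other wild-type libraries were above every mutant library. No mutation was called against wild type over all libraries (adjusted p = 0.0763, 0.0511 and 0.365 for mutations 1, 2 and 3). All 3 were called lower once that replicate was dropped, at -1.26, -1.50 and -0.85, so the answer for this chain rests on that library. COL23A1 and COL25A1, the other transmembrane chains, had 3 and 4 counts.

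COL18A1, the multiplexin whose end is cut off as endostatin (chr21:45405137-45513720, plus strand), read 408, 210.3 and 198 CPM in wild type, 713, 688 and 719 with mutation 1, 337, 384 and 370.5 with mutation 2 and 407, 409 and 400.5 with mutation 3. It rose with mutation 1 (1.38, SE 0.22, adjusted p = 2.38e-04, and 1.79 without wild-type replicate 1). Mutation 2 was not called (0.42, adjusted p = 0.157), but was at 0.84 (adjusted p = 9.04e-39) when that library was dropped. The mutation 3 value was 0.58 (SE 0.22, adjusted p = 0.0411), a call lost when any 1 of 11 libraries other than wild-type replicate 1 was left out (adjusted p up to 0.14), and it was 0.99 without wild-type replicate 1. Of its exon bases 16.4% overlap SLC19A1 on the other strand, which the unstranded counting cannot separate; SLC19A1 itself had 832 counts against 77868 for COL18A1. COL15A1, the other multiplexin, was a trace chain with 130 counts and was called in no comparison.

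The mutant groups were also compared with one another. Mutation 1 against mutation 2 called 14 of 24 chains higher and 4 lower, where 31.8% and 33.6% of all genes were called, with a median of 0.68 against -0.03 for all genes. The 4 lower were COL3A1, COL4A4, COL5A2 and COL17A1. Mutation 1 against mutation 3 called 11 higher and 1 lower, COL5A2 (20.2% and 22.5% of all genes), with a median of 0.57 against -0.01. Scaled by library totals alone that split was 7 and 2. The 11 became 5 to 7 without any 1 of the mutation 1 or mutation 3 libraries and 15 without wild-type replicate 1 (32.9% of all genes). Mutation 2 against mutation 3 called 7 higher and 3 lower (27.2% and 25.7% of all genes), with a median of -0.10 against 0.00. The 7 became 4 without mutation 2 replicate 3 or mutation 3 replicate 1 or 2, and the 3 became 10 when wild-type replicate 1 was dropped (36.3% of all genes) and 5 when replicate 2 or 3 of that group was. The 3 lower were COL1A1, COL6A2 and COL27A1, and the 7 higher included COL4A4, COL4A5, COL7A1 and COL17A1. These fits take the spread of all 12 libraries, wild-type replicate 1 included. With only the 6 libraries compared, in which 20 chains were tested, mutation 2 against mutation 3 called 8 higher and 10 lower (38.8% and 39.0% of all genes in that fit). In that setting mutation 1 against mutation 2 called 16 of 20 higher and 3 lower, where 11916 of 14256 genes were called either way. Mutation 1 against mutation 3 called 14 of 20 higher and 2 lower, where 10073 of 14207 genes were called either way.

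The chains with a miR-29 site and those without were set side by side as a description. Of the 14 detected chains with a site, 9 were called higher and 1 lower with mutation 1 against wild type, and of the 6 without a site, 2 were called higher and 1 lower (32.5% and 36.5% of all genes). The medians were 0.84 and 0.34. Dropping wild-type replicate 1 gave 10 and 2 with a site and 3 and 2 without (40.2% and 42.5% of all genes), with medians of 1.05 and 0.59. With mutation 2 the counts were 3 higher and 3 lower with a site, and 1 and 1 without (16.9% and 20.1% of all genes). With mutation 3 they were 3 higher and 4 lower with a site, and 2 and 1 without (28.1% and 31.2%). Leaving out wild-type replicate 1 gave 8 and 3 against 4 and 2 for mutation 2 (33.0% and 34.9%), and 8 and 4 against 3 and 3 for mutation 3 (38.2% and 38.8%). Over all libraries the medians with and without a site were 0.13 and 0.02 for mutation 2 and -0.06 and -0.23 for mutation 3. For mutation 1 against mutation 3 they were 0.57 and 0.57, and for mutation 1 against mutation 2 0.71 and 0.54. Over all libraries with mutation 1, the 9 higher chains with a site were COL1A1, COL4A1, COL4A2, COL5A1, COL6A2, COL7A1, COL8A1, COL16A1 and COL27A1. The 1 lower chain with a site was COL5A2. Among those without a site, COL12A1 and COL18A1 were higher and COL17A1 was lower. Any part of the sites in these levels was not tested.

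Genes that process collagen were taken from lists of chain modification and folding, procollagen export, propeptide cleavage and cross-linking, collagen receptors, and proteins that bind fibrils. Of 22 modification and folding genes, 18 were called higher and 1 lower with mutation 1 against wild type (32.5% and 36.5% of all genes), 2 higher and 4 lower with mutation 2 (16.9% and 20.1%), and 7 higher and 2 lower with mutation 3 (28.1% and 31.2%). The same shares over all genes hold for the lists that follow. In this and the next paragraphs the value without wild-type replicate 1 follows the adjusted p. Their median log2 fold change with mutation 1 was 0.96, against -0.04 over all genes. The counts were 19 and 1, 14 and 5, and 18 and 3 with that library left out (40.2% and 42.5%, 33.0% and 34.9%, and 38.2% and 38.8% of all genes). Fitted with only the 2 groups compared they were 14 and 1 with mutation 1, 2 with mutation 2, both lower, and 3 and 2 with mutation 3. The shares of all genes in those fits were 26.4% and 32.0%, 8.73% and 9.76%, and 20.2% and 26.4%. In both of these settings the shares hold for the lists that follow too. Mutation 1 against mutation 2 called 18 of the 22 genes, all higher (31.8% of all genes were called higher and 33.6% lower). That count fell when scaled by library totals alone. CREB3L2, a transcription factor of the secretory pathway, read 141, 95.7 and 91.0 CPM in wild type, 585, 585 and 573 with mutation 1, 165, 166 and 168 with mutation 2 and 198, 215 and 214 with mutation 3. Its change with mutation 1 was 2.41 (SE 0.14, adjusted p = 9.75e-08, 2.64 without that library). PLOD2, the hydroxylase of telopeptide lysines, read 159.9, 101 and 98.5 CPM in wild type and 241, 264 and 244 with mutation 1, a change of 1.06 (SE 0.15, adjusted p = 1.01e-04, 1.32 without that library). P3H3, a member of the prolyl 3-hydroxylase family, rose with mutation 1 by 2.13 (SE 0.21, adjusted p = 5.57e-06, 2.04 without that library) and fell with mutation 2 by 1.16 (SE 0.24, adjusted p = 0.00327, -1.23 without that library) on the log2 scale.

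Of 13 procollagen export genes, which include the COPII coat that carries procollagen from the endoplasmic reticulum, 8 were called higher and 1 lower with mutation 1 against wild type, 4 with mutation 2, all lower (20.1% of all genes), and 6 higher and 3 lower with mutation 3 (28.1% and 31.2%). With wild-type replicate 1 left out, the counts were 11 and 1, 4 and 7, and 8 and 4. In the fits of 2 groups only they were 7, all higher, then 2, both lower, and 4 and 1. SEC24D, a cargo-binding COPII subunit, read 110.5, 104 and 104 CPM in wild type, 339, 336 and 345 with mutation 1, 116, 107 and 106 with mutation 2 and 207, 209.6 and 215 with mutation 3. Wild-type replicate 1 did not stand apart for this gene. Its change was 1.68 (SE 0.05, adjusted p = 2.53e-09, 1.72 without that library) with mutation 1 and 0.99 (SE 0.05, adjusted p = 1.48e-07, 1.02 without that library) with mutation 3. SEC23A rose with mutation 1 by 0.81 (SE 0.06, adjusted p = 4.10e-07, 0.78 without that library) and fell with mutation 2 by 0.59 (SE 0.06, adjusted p = 4.30e-05, -0.61 without that library) on the log2 scale, and SEC31A rose with mutation 1 by 1.04 (SE 0.05, adjusted p = 1.96e-08, 1.02 without that library).

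Of 15 cleavage and cross-linking genes 12 were tested, and 8 were called higher and 1 lower with mutation 1 against wild type, 3 higher and 2 lower with mutation 2 (16.9% and 20.1% of all genes), and 4 higher and 2 lower with mutation 3 (28.1% and 31.2%). Without that library the counts were 9 and 1, 6 and 3, and 8 and 2, and with only the 2 groups compared 7 and 1, 1 and 2, and 4 and 1. LOXL4, a lysyl oxidase that cross-links fibrils, read 108, 45.4 and 44.8 CPM in wild type, 476, 463 and 481 with mutation 1, 102, 112 and 107 with mutation 2 and 258, 261 and 258 with mutation 3, a change with mutation 1 of 2.84 (SE 0.29, adjusted p = 7.31e-06, 3.40 without that library). ADAMTS14, a procollagen N-proteinase, rose with mutation 1 by 3.72 (SE 0.24, adjusted p = 2.52e-07, 4.20 without that library) and with mutation 3 by 2.72 (SE 0.24, adjusted p = 4.43e-06, 3.20 without that library). BMP1, the procollagen C-proteinase, read 60.1, 46.5 and 48.8 CPM in wild type and 31.0, 29.3 and 27.4 with mutation 2. It rose with mutation 1 by 0.62 (SE 0.09, adjusted p = 1.36e-04, 0.74 without that library) and fell with mutation 2 by 0.83 (SE 0.09, adjusted p = 1.11e-04, -0.70 without that library) on the log2 scale. PXDN, which forms the sulfilimine bonds of type IV collagen, rose with mutation 1 by 0.95 (SE 0.05, adjusted p = 5.12e-08, 0.99 without that library).

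**Figure D5:**
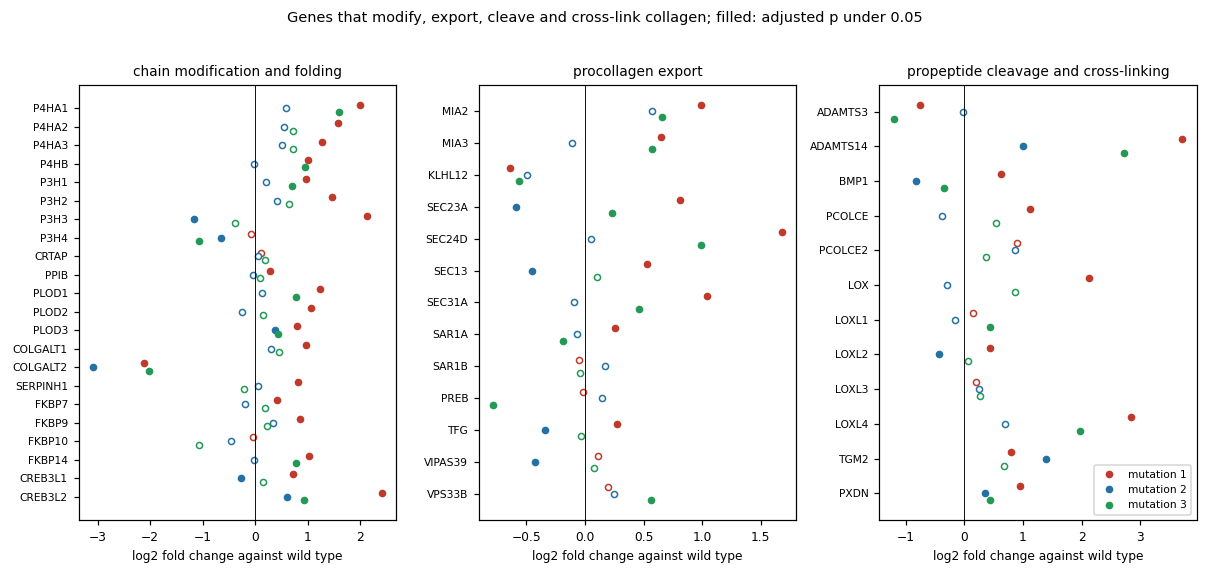
Log2 fold change against wild type of the tested genes of 3 collagen-processing lists for mutations 1, 2 and 3, from the fit over all 12 libraries; filled points have an adjusted p under 0.05. Most mutation 1 points lie right of 0, 18 of 22, 8 of 13 and 8 of 12 of them called higher.

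Of 14 receptors 9 were tested, and 3 were called higher and 2 lower with mutation 1 against wild type (32.5% and 36.5% of all genes). Mutation 2 called 4, all lower (20.1% of all genes), and mutation 3 called 2 higher and 3 lower (28.1% and 31.2% of all genes). With so few genes, the counts for mutations 1 and 3 were not taken as different from those shares. With that library left out the counts were 5 and 3, 3 and 5, and 3 and 4, and with only the 2 groups compared 3 and 2, then 3, all lower, and 1 and 1. ITGB1, the beta subunit of the collagen-binding integrins, read 1291, 1237 and 1232 CPM in wild type, 1989, 2012 and 1955 with mutation 1 and 875, 863 and 857 with mutation 2, and changed by 0.66 (SE 0.05, adjusted p = 4.37e-07, 0.69 without that library) and -0.54 (SE 0.05, adjusted p = 2.42e-05, -0.51 without that library). ITGA2, the alpha subunit of a collagen-binding integrin, read 63.6, 325 and 324 CPM in wild type and 72.9, 71.3 and 72.2 with mutation 1, so wild-type replicate 1 lay below the mutation 1 libraries and the other wild-type libraries above them; its change was -1.72 (SE 0.44, adjusted p = 0.00511), and -2.17 without that library. Of 16 fibril-binding proteins 3 were tested, and mutations 1, 2 and 3 called 2, 1 and 1 of them, all higher. The counts were the same with only the 2 groups compared. With that library left out 5 were tested, and the higher and lower counts were 2 and 2, 2 and 0, and 2 and 1. HSPG2, the perlecan core protein of basement membranes, rose with all 3 mutations by 1.17, 1.62 and 1.69 (adjusted p = 1.94e-05, 1.91e-05 and 2.37e-06), and by 1.00, 1.46 and 1.52 without that library. TGFBI rose with mutation 1 by 1.56 (SE 0.28, adjusted p = 5.32e-04, 2.13 without that library). SPARC, at 0.459, 2.63 and 2.91 CPM in wild type, was called in no comparison against wild type over all libraries.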

How the data were processed

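The authors deposited, per the file headers, raw counts of read pairs per gene for each library, made with featureCounts 2.0.6, unstranded, by summing exons of a gene, at a mapping quality of at least 10. Per the submitters' processing notes the build was hg38 and the reads passed through FastQC 0.11.8, cutadapt 1.9.1, STAR and SAMtools (versions of the last 2 not given in the sources used here), with DESeq2 named for testing. The library sums, 13507341 to 17078273, set the counting precision. Symbols came from GENCODE v29 for 56591 of 64252 IDs (88.08%), and exon lengths for RPKM are unions of its exons, which may differ from the gene track used for counting.

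From these counts edgeR 4.0.16 (R 4.3.3) was fitted once over all 12 libraries, with TMM scaling, filterByExpr (minimum count 10, minimum total 15), robust quasi-likelihood dispersions and 8 residual degrees of freedom. The threshold for a call was 0.05 on p-values adjusted by Benjamini-Hochberg over 15094 genes. The steps were tested on simulated data with the same spread for every gene and no library set apart. That test therefore does not cover a group with a library like wild-type replicate 1. Alternatives were DESeq2 1.42.0 (its size factors and its test), library totals alone, no filter, only the 2 groups compared, and leaving out each library. Intervals are 95% Clopper-Pearson. A chain was detected at a group mean of 1 CPM. Any chain could be named, and of each list of other collagen genes up to 6 with the lowest adjusted p over the 4 groups. The chains and lists were chosen with earlier results of these data known. The numbers of the mutant replicates only name libraries. Protein sequences were not used here.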

Additional observations from a re-analysis of the deposited data

How the results depend on the processing

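No paired analysis was possible because the labels number the replicates of wild type only. Of the 74 chain and comparison pairs called over all 12 libraries, 52 stayed called whichever single library was left out, and none changed sign under any alternative. With DESeq2's size factors 74 of 74 stayed called and with DESeq2's own test 67 of 71; for the other 3, all of them COL4A5 against mutation 3, DESeq2 gave no adjusted p. Without the filter on low counts 59 of 74 stayed called, with library totals 63 of 74, with only the 2 groups compared 55 of 67, and without wild-type replicate 1 72 of 74. Among values not called, COL5A1 in mutation 2 against wild type ranged from -0.33 (without wild-type replicate 3) to 0.51 (without wild-type replicate 1) when 1 library was left out. COL6A1 in mutation 1 ranged from -0.019 (without wild-type replicate 1) to 0.30 (without wild-type replicate 3), and was -0.024 with library totals. Leaving out 1 library gave -0.20 to 0.22 for COL4A1, -0.29 to 0.024 for COL4A2 and -0.65 to 0.35 for COL9A2 in mutation 2, and -0.63 to 0.21 for COL5A1 and -0.45 to 0.55 for COL9A2 in mutation 3, the highest in each case without wild-type replicate 1. COL4A2 in mutation 3 was -0.011 with library totals. COL4A6 in mutation 1 ran from -1.10 to 4.92, the latter a fitted value against no counts. The causes were not tested.

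Counts of chains that moved over 1.5 times were as follows. For mutation 1 against wild type, lower chains went from 2 to 4 with DESeq2's test and 5 with library totals. With only the 2 groups compared, mutation 2 against wild type had 2 higher and 0 lower (edgeR, 5 lower at an unadjusted p under 0.05, and 5 by DESeq2 over all libraries), mutation 3 against wild type had 3 higher, mutation 1 against mutation 3 had 2 lower, and mutation 2 against mutation 3 had 10 lower. With library totals, mutation 1 against mutation 3 had 7 higher and 2 lower, and the median of all genes moved to -0.25, -0.23 and -0.14 for mutation 1 against wild type, mutation 1 against mutation 2 and mutation 3 against wild type.

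Leaving out each library in turn, higher and lower chains ranged from 10 to 14 and 2 to 4 for mutation 1 against wild type, 4 to 14 and 3 to 6 for mutation 2 against wild type, 3 to 12 and 5 to 8 for mutation 3 against wild type, 10 to 17 and 3 to 5 for mutation 1 against mutation 2, 5 to 15 and 0 to 4 for mutation 1 against mutation 3, and 4 to 9 and 3 to 10 for mutation 2 against mutation 3. The 0 (edgeR, without mutation 1 replicate 1 or mutation 3 replicate 3) had 1 lower chain at an unadjusted p under 0.05, and DESeq2 over all libraries called 1. The number differing among the 4 groups ranged from 17 to 22. Depth limits the 21 trace chains, for which 3 counts are 0.168 to 0.239 CPM in a library.

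Of the 60 counts for the 5 lists of other collagen genes, 26 moved over 1.5 times without wild-type replicate 1, 22 with only the 2 groups compared, 9 without the filter, 6 with library totals, 6 with DESeq2's test and 1 with its size factors, as did 62 of 660 on leaving out another library. Folding genes called higher went from 18 to 11 in mutation 1 against mutation 2 with library totals.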
